A study of Homo sapiens with 9 samples.

Results

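The comparison described here set 5 DIP2C+/- clones of RKO, a human colorectal carcinoma cell line, against 2 DIP2C-/- clones of the same line, 7 of the 9 samples of the series. The DIP2C+/- clones were A6-C9, A9-A12, F6-A7, G1-A5 and H9-A4, with 1 targeted allele each, and the DIP2C-/- clones were E3 and C10, with 2 targeted alleles. Members were chosen by the genotype in the sample labels, and the 2 parental RKO samples, with 0 targeted alleles, served as reference levels only. Both genotypes carried the product of adeno-associated virus targeting that removes part of exon 9 of DIP2C, followed by Cre recombinase to take out the selection cassette. RNA was collected after 48 h of growth. Each clone gave 1 library, and by the study's description both DIP2C-/- clones came from a second round of targeting in a single heterozygous clone. The labels do not say which of the 5 DIP2C+/- clones that was, and independence between clones is assumed in every test. The labels also list more heterozygous clones than the study's text describes, and whether some of the listed clones share a targeting event is not given in the sources used here. A clone that passed through targeting and selection with both alleles intact is not among the samples analysed here, and the p-values measure only the spread between single clones.

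DIP2C encodes a member of the disco-interacting protein 2 family, large proteins with a DMAP1-binding domain near the N terminus and domains related to acyl-CoA synthetases. DMAP1 associates with the maintenance DNA methyltransferase DNMT1. A gene whose level follows the number of intact alleles would lie highest in parental cells, between in heterozygous clones and lowest in homozygous clones, or the reverse, and a gene that needs only 1 intact allele would lie at parental level in the heterozygous clones.

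The deposited values summed to 14772593 to 21486483 counts in the 7 clones, and 15059 of 23619 genes reached at least 10 counts in 2 clones. Pairs of samples differed by far more than counting noise, so each library was counted separately. The defining marker of the gut epithelium CDX2 was present at 15.4 to 19.6 CPM, counts scaled to a common library size, in the 7 clones, whereas VIL1, KRT20, LGALS4 and CDH17 stayed under 1 CPM, and 3 to 4 of the 13 intestinal markers reached 1 CPM in each clone. The 13 summed to 146 to 188 CPM in DIP2C-/- and 186 to 334 CPM in DIP2C+/- clones, most of it keratin KRT18. The 16 markers of other cell types summed to 453 and 491 CPM in DIP2C-/- clones and to 25.3 to 685 CPM in DIP2C+/- clones. This sum was almost all CD68, a lysosomal glycoprotein, at 441 and 483 CPM in DIP2C-/- clones, 507 to 676 CPM in 4 DIP2C+/- clones and 16.0 CPM in H9-A4, while the other 15 markers reached at most 5.17 CPM. In bulk samples fewer cells of a type and less RNA per cell cannot be told apart.

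The sequence removed in part by the targeting is exon 9 of DIP2C, shown because every comparison rests on it. DIP2C lies on the minus strand at chr10:320141-735608 (GRCh37), and exon 9 of the 37 exons of the annotated transcript is chr10:454866-454957, a coding exon of 92 bases. Which bases of it remain in each clone was not measured, since the files hold 1 value per gene. The second sequence is SNORA57, a small nucleolar RNA of 149 bases at chr11:62432894-62433042 on the plus strand, shown because it was the single gene that passed edgeR's test between the genotypes. Capitals mark the ACA trinucleotide that stands 3 bases before the 3′ end in box H/ACA RNAs. Both are reference sequences read from GRCh37, in transcript direction.
DIP2C exon 9: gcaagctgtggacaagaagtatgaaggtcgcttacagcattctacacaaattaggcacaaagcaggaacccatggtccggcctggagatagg
SNORA57: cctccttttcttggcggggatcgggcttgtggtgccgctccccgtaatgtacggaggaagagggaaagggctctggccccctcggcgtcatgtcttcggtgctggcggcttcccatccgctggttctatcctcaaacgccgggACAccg

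DIP2C itself was ordered by the number of targeted alleles without overlap. Its level was 16.5 CPM in E3 and 23.2 CPM in C10. The DIP2C+/- clones had 46.1 CPM in F6-A7, 55.6 CPM in H9-A4, 39.0 CPM in A9-A12, 43.3 CPM in G1-A5 and 33.9 CPM in A6-C9. The parental samples had 60.6 and 72.0 CPM. Every DIP2C+/- clone thus lay above both DIP2C-/- clones and below both parental samples. Group means were 66.3 ± 8.06 CPM (SD, n = 2) in parental cells, 43.6 ± 8.13 CPM (SD, n = 5) in DIP2C+/- and 19.8 ± 4.70 CPM (SD, n = 2) in DIP2C-/- clones. As a share of the parental mean the heterozygous level was 65.8% and the homozygous level 29.95%, and the midpoint between the parental and homozygous means was 65.0%. Among single clones the share ran from 51.2% in A6-C9 to 83.9% in H9-A4.

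The log2 difference of DIP2C, DIP2C+/- minus DIP2C-/-, was 1.12 (SE 0.231) with an adjusted p of 0.953 in edgeR's quasi-likelihood test over all 15059 genes, so the targeted gene did not pass the threshold of 0.05. DESeq2's Wald test on the same 7 clones gave 1.11 (SE 0.248) and an adjusted p of 0.0402. The exact two-sided permutation test over the 21 splits of the 7 clones gave p = 0.0952, the smallest value that 5 clones against 2 can give.

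**Figure D1:**
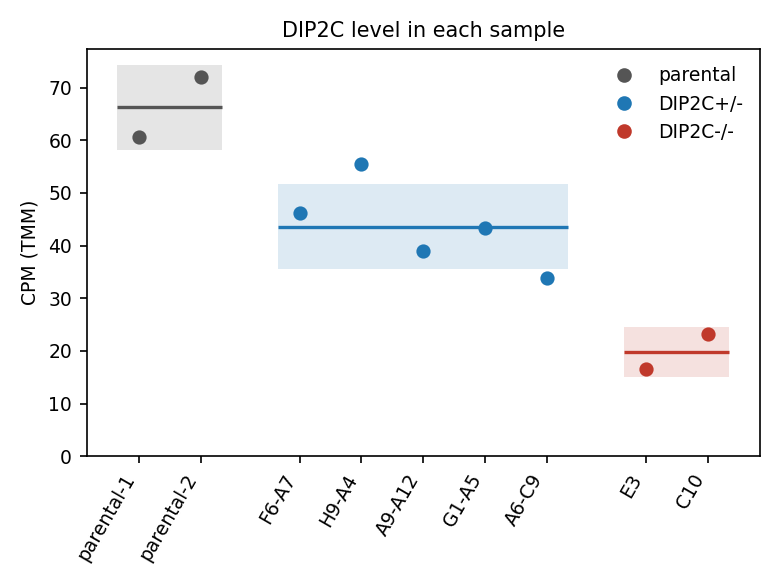
DIP2C level in CPM (TMM-scaled) in each of the 9 samples, 1 point per library; lines are group means and shaded bands ± 1 SD. The 5 DIP2C+/- clones sit between 33.9 and 55.6 CPM, above the DIP2C-/- clones at 16.5 and 23.2 CPM and below the parental samples at 60.6 and 72.0 CPM.

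Between the genotypes 1 gene, 0.00664% of those tested, was called higher in DIP2C+/- clones and 0 genes, 0%, were called lower at an adjusted p under 0.05 with edgeR. At an unadjusted p under 0.05 (edgeR), 478 of the 15059 genes tested were higher and 214 lower. Together these were fewer genes than that threshold would pass if no gene differed. DESeq2 called 4 genes higher and 0 lower out of the same 15059. The biological coefficient of variation between clones was 0.312.

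The gene called was SNORA57, a box H/ACA small nucleolar RNA (snoRNA) of the class that guides pseudouridylation. Its level was 152 CPM in E3 and 193 CPM in C10. In the DIP2C+/- clones it was 539 CPM in F6-A7, 505 CPM in H9-A4, 485 CPM in A9-A12, 587 CPM in G1-A5 and 558 CPM in A6-C9. The heterozygous clones were thus close to each other and did not overlap the homozygous clones. The parental samples had 332 and 563 CPM, both above the DIP2C-/- clones, the second within the range of the DIP2C+/- clones. The pattern was therefore not graded by allele number: the DIP2C+/- mean was 535 ± 40.8 CPM (SD, n = 5), the parental mean 448 ± 163 CPM (SD, n = 2) and the DIP2C-/- mean 172 ± 29.3 CPM (SD, n = 2). The log2 difference was 1.61 (SE 0.150) with an adjusted p of 0.0192 (edgeR).

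SNORA57 lies within METTL12 (CSKMT), a methyltransferase gene, and overlaps an annotated exon of it. The annotation also holds 4 copies of the snoRNA name, so the counting of these reads is uncertain. METTL12 was at 5.75 and 6.85 CPM in DIP2C-/- clones and 4.36 to 9.27 CPM in DIP2C+/- clones, with a log2 difference of -0.07 and an adjusted p of 0.992 (edgeR). The call of SNORA57 held when H9-A4 was left out, with an adjusted p of 0.00875, and was lost when any other single clone was left out, with values from 0.0560 without A9-A12 to 1.00 without E3, while the log2 difference stayed between 1.49 and 1.75.

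The remaining calls of DESeq2 were DIP2C and a pair of other snoRNAs, SNORD17 and SNORA38B. SNORD17, a box C/D RNA of the class that guides 2′-O-methylation, lies on the minus strand at chr20:17943353-17943589, inside the annotated spans of SNX5 and OVOL2. It was at 90.2 and 127 CPM in the DIP2C-/- clones and at 212, 205, 189, 219 and 218 CPM in A6-C9, A9-A12, F6-A7, G1-A5 and H9-A4. The log2 difference was 0.93 (SE 0.155), with an adjusted p of 0.953 in edgeR and 2.2e-04 in DESeq2. All heterozygous clones were above both homozygous clones, and the parental samples, at 128 and 183 CPM, lay between the genotypes. SNORA38B, in an intron of NOL11 at chr17:65736785-65736915, was at 18.3 and 24.3 CPM in DIP2C-/- clones. Its DIP2C+/- values were more scattered, 36.1 CPM in F6-A7, 41.4 CPM in H9-A4, 89.6 CPM in A9-A12, 84.5 CPM in G1-A5 and 60.4 CPM in A6-C9, and the parental samples had 39.3 and 44.9 CPM. The log2 difference was 1.53 (SE 0.367), with an adjusted p of 0.953 in edgeR and 0.0421 in DESeq2.

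**Figure D2:**
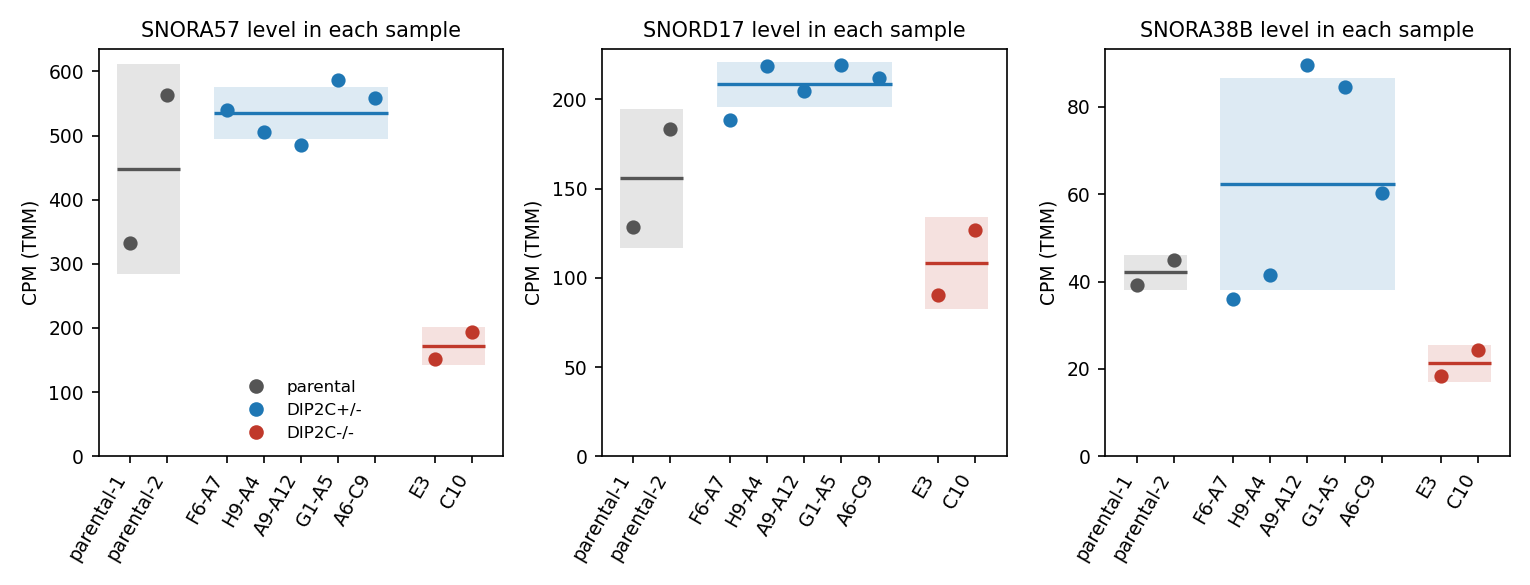
CPM (TMM-scaled) of SNORA57, SNORD17 and SNORA38B in each of the 9 samples, 1 point per library; lines are group means and shaded bands ± 1 SD. In each panel the 5 DIP2C+/- clones lie above both DIP2C-/- clones, and both parental samples do so too.

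As a class the snoRNAs were close to all genes tested. Of 241 small nucleolar and Cajal body RNAs tested, 14 had every DIP2C+/- clone above both DIP2C-/- clones and 6 every one below, which is 5.81% and 2.49%, against 7.25% and 3.55% of all genes tested. With an offset for transcript length 25 were higher, 10.4% against 6.02% of all genes. Their median log2 difference was 0.12, and that of all genes 0.02. SCARNA2, a Cajal body RNA that guides modification of spliceosomal RNA, was among those higher, at 283 and 364 CPM in DIP2C-/- and 455 to 656 CPM in DIP2C+/- clones (log2 difference 0.72, adjusted p 0.953, edgeR). SNORD111B was among those lower, at 59.3 and 44.8 CPM in DIP2C-/- and 21.7 to 39.0 CPM in DIP2C+/- clones. Summed over the 241 RNAs the level was 26379 CPM in E3 and 33678 CPM in C10, inside the range of 20663 to 39268 CPM of the DIP2C+/- clones.

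Over all genes, 1092 had every DIP2C+/- clone above both DIP2C-/- clones and 535 had every one below, the 7.25% and 3.55% already given. The direction of this imbalance depended on the scaling. With TMM factors 67.1% of the genes without overlap were higher in DIP2C+/- clones, with DESeq2 size factors 62.6%, and with scaling by library size alone 39.1%, with 728 genes higher and 1135 lower. It also depended on which homozygous clone was used, since without E3 there were 1782 genes higher and 2028 lower, and without C10 3352 higher and 1569 lower.

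The genes without overlap were unevenly spread over transcript length. Among the shortest quintile of the 13393 genes with an annotated length, 10.1% were higher and 2.31% lower in DIP2C+/- clones, and among the longest quintile 2.65% were higher and 5.34% lower. The median log2 difference went from 0.12 in the shortest quintile to -0.09 in the longest. Clone E3 had the lowest level of short genes, with a median of -0.16 on the log2 scale relative to the mean of the 7 clones, and G1-A5 the highest, with 0.13. With an offset for transcript length, 1116 of the 1627 genes without overlap kept their side, 906 genes were higher and 779 lower, and SNORA57 had a log2 difference of 1.59 with an adjusted p of 0.993.

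The mean of the DIP2C+/- clones lay between the parental and DIP2C-/- means at 47.6% of all genes tested. At 28.7% the DIP2C-/- mean lay between and at 23.7% the parental mean. Among the 1092 genes higher in DIP2C+/- clones, DIP2C+/- was between at 464, parental between at 532 and DIP2C-/- between at 96. Among the 535 lower genes the counts were 202, 261 and 72. These genes were chosen for a gap between the genotypes, so the counts are a description and carry no test.

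Of the genes without overlap and with a mean of at least 2 CPM, those with the largest differences upward in DIP2C+/- clones were SNORA43, RNF5, ARHGAP18, C17orf61-PLSCR3, SNORD80, MPZL3, SNORA60, IER3, MTMR11 and SNORA57. ARHGAP18 was at 0.551 CPM in E3 and 1.11 CPM in C10. It was at 1.20 CPM in F6-A7, 13.7 CPM in H9-A4, 7.11 CPM in A9-A12, 11.6 CPM in G1-A5 and 1.13 CPM in A6-C9, and at 13.5 and 15.5 CPM in the parental samples. F6-A7 and A6-C9 were therefore barely above the homozygous clones, while H9-A4 and G1-A5 were near the parental level. The log2 difference was 3.03 (SE 1.10, adjusted p 0.953, edgeR).

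IER3, an immediate early gene that modulates survival signalling, was at 3.79 and 5.53 CPM in DIP2C-/- clones. The DIP2C+/- clones had 6.59, 33.5, 9.15, 14.5 and 11.4 CPM in A6-C9, A9-A12, F6-A7, G1-A5 and H9-A4, and the parental samples 15.7 and 10.4 CPM. MPZL3, an adhesion protein of the immunoglobulin family, was at 0.612 and 0.895 CPM in DIP2C-/- and 1.34 to 3.80 CPM in DIP2C+/- clones. None of these passed edgeR's test after adjustment other than SNORA57. RNF5 has near-identical copies, and C17orf61-PLSCR3 is a read-through locus that shares exons with its neighbours, so both counts are uncertain. C17orf61-PLSCR3 and RNF5 are listed at 0 in C10 and SNORA43 at 0 in E3. An exact 0 in these files can be a failed estimate: 17 genes were listed at 0 in at least 1 clone while another clone had at least 10 CPM.

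Of the 10 largest differences downward, the 9 reported here were at COMMD3-BMI1, UNC5A, CWC27, UTS2, AKAP12, ILDR2, PRR7-AS1, FAM86FP and STXBP5L. AKAP12, a scaffold protein for protein kinases A and C, was at 136 and 127 CPM in DIP2C-/- clones, against 95.7 CPM in F6-A7, 17.1 CPM in H9-A4, 18.5 CPM in A9-A12, 80.1 CPM in G1-A5 and 74.0 CPM in A6-C9. H9-A4 and A9-A12 were at the level of the parental samples, 13.7 and 26.0 CPM, and the other DIP2C+/- clones lay in between. The log2 difference was -1.23 (SE 0.588, adjusted p 0.953, edgeR). CWC27, a spliceosomal peptidyl-prolyl isomerase, was at 4.16 and 5.95 CPM in DIP2C-/- and 1.39 to 2.81 CPM in DIP2C+/- clones. The parental samples were at 2.52 and 6.10 CPM, the first within the range of the DIP2C+/- clones. COMMD3-BMI1 is a read-through locus and PRR7-AS1 an antisense gene, and since the counting is not stated to use strand, their reads cannot be told apart from those of the partners.

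A stricter reading of dosage asked for genes at which all 5 DIP2C+/- clones lay between both parental samples and both DIP2C-/- clones. There were 47 such genes graded downward with the number of targeted alleles, 0.312% of those tested, and 17 graded upward, 0.113%. For comparison, the other complete orders of the 3 groups without overlap held 39 genes with DIP2C+/- highest and parental lowest, 37 with DIP2C+/- highest and DIP2C-/- lowest, 16 with parental highest and DIP2C+/- lowest, and 8 with DIP2C-/- highest and DIP2C+/- lowest. An adjusted p under 0.05 was reached by none of the 64 graded genes, the smallest being 0.953 (edgeR). An unadjusted p under 0.05 was reached by 16 of the 47 and 3 of the 17 (edgeR). Graded genes were chosen for a gap between these same clones, so small unadjusted p-values follow from the choice and carry no test. With library size alone as the scale the graded genes numbered 35 downward and 39 upward.

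The graded genes with the largest difference between parental and DIP2C-/- levels, downward, were SP5, NR2F1, NPC2, IER5L, FOSL2, DIP2C, TUBA4A, MAP3K14, CBR3 and G2E3. NPC2, a lysosomal cholesterol-binding protein, had 253 and 273 CPM in parental samples and 52.6 and 59.0 CPM in DIP2C-/- clones. Its heterozygous levels were 68.0 CPM in F6-A7, 114 CPM in H9-A4, 60.9 CPM in A9-A12, 105 CPM in G1-A5 and 86.4 CPM in A6-C9, nearer to the homozygous than to the parental level. IER5L, an immediate early response gene, had 45.6 and 49.4 CPM in parental samples and 9.54 and 13.4 CPM in DIP2C-/- clones. Its heterozygous levels spread from 14.8 CPM in A6-C9 through 22.0 CPM in F6-A7, 32.4 CPM in A9-A12 and 38.5 CPM in G1-A5 to 41.1 CPM in H9-A4, which spans almost the whole distance between the reference groups.

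FOSL2, an AP-1 transcription factor subunit, was at 47.0 CPM in both parental samples and at 13.6 and 12.9 CPM in DIP2C-/- clones. Its heterozygous levels were 17.7 CPM in F6-A7, 26.4 CPM in H9-A4, 16.6 CPM in A9-A12, 24.2 CPM in G1-A5 and 18.3 CPM in A6-C9. SP5, a zinc finger factor downstream of Wnt signalling, was low throughout, at 3.17 and 2.54 CPM in parental samples, 0.205 to 1.29 CPM in DIP2C+/- and 0.122 and 0.158 CPM in DIP2C-/- clones. NR2F1, an orphan nuclear receptor, had 81.1 and 67.2 CPM in parental samples, 16.9 to 51.3 CPM in DIP2C+/- and 11.4 and 16.1 CPM in DIP2C-/- clones. MAP3K14, the kinase that starts the noncanonical NF-kB pathway, had 38.0 and 50.2 CPM, then 15.04 to 37.2 CPM, then 14.2 and 13.5 CPM in the same order of groups. The alpha-tubulin gene TUBA4A had 276 and 259 CPM, then 102 to 222 CPM, then 76.1 and 89.9 CPM.

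Upward, the graded genes with the largest differences were C9orf9, LOC100505812, LOC400680, DGKQ, C5orf55, IPMK, COX15, FCHO2, PPP1R21 and PDS5B. DGKQ, a diacylglycerol kinase, was at 21.1 and 22.5 CPM in parental samples and at 49.2 and 43.3 CPM in DIP2C-/- clones, with 42.1, 34.9, 32.1, 29.2 and 36.5 CPM in A6-C9, A9-A12, F6-A7, G1-A5 and H9-A4. Its log2 difference, DIP2C+/- minus DIP2C-/-, was -0.43 (SE 0.180, adjusted p 0.953, edgeR). COX15, needed for heme A synthesis, was at 84.6 and 86.5 CPM in parental samples, 88.6 to 133 CPM in DIP2C+/- and 142 and 138 CPM in DIP2C-/- clones. PDS5B, a cohesin cofactor, was at 65.9 and 61.6 CPM, 69.2 to 94.1 CPM and 95.4 and 95.4 CPM in the same order. At DGKQ, COX15 and PDS5B the gap from the highest DIP2C+/- clone to the nearest DIP2C-/- clone was smaller than the SD of the DIP2C+/- clones, which was 4.86, 17.9 and 10.99 CPM (n = 5). At every named gene graded downward except DIP2C, the gap from the lowest DIP2C+/- clone to the nearest DIP2C-/- clone was under that gene's SD. NPC2, for example, had 60.9 CPM in A9-A12 against 59.0 CPM in C10, with an SD of 22.8 CPM (n = 5).

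The position of a DIP2C+/- clone between the parental mean (0%) and the DIP2C-/- mean (100%) on the log2 scale of CPM + 0.5 described how far each clone had gone. Over the 47 genes graded downward the median position was 67.4% in F6-A7, 23.0% in H9-A4, 58.2% in A9-A12, 45.3% in G1-A5 and 65.6% in A6-C9, and that of the mean of the 5 clones was 50.8%. H9-A4 was nearest to the parental level at 29 of the 47 genes. Over the 17 genes graded upward the median positions were 51.9%, 34.9%, 62.9%, 62.3% and 66.9% in the same order of clones, with 62.6% for the mean. For DIP2C itself the position of the mean was 34.9%, and single clones ran from 14.7% in H9-A4 to 55.7% in A6-C9. These positions lie between 0% and 100% because the genes were chosen for it, so they carry no test. Without H9-A4 the graded sets held 151 genes downward and 58 upward.

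**Figure D3:**
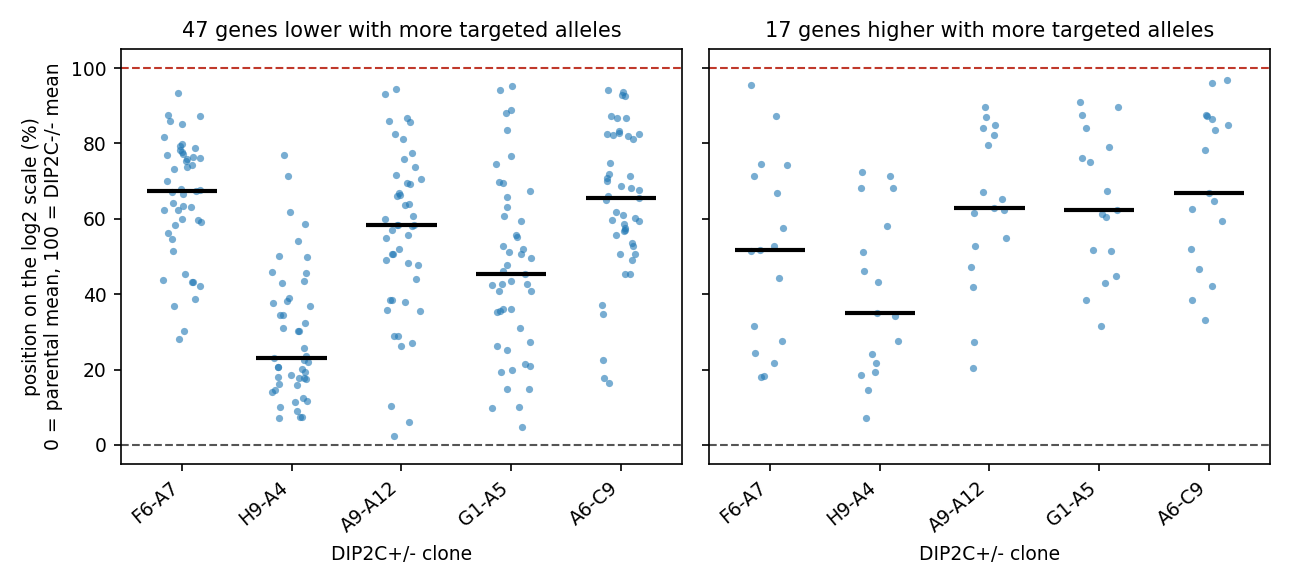
Position of each DIP2C+/- clone between the parental mean (0%) and the DIP2C-/- mean (100%) on the log2 scale (y axis), 1 point per graded gene and 1 column per clone (x axis), with 47 genes lower with more targeted alleles on the left and 17 genes higher on the right. Black lines are medians; H9-A4 has the lowest median in both panels, 23.0% and 34.9%.

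Genotype did not sort the clones by overall likeness. Over the 9559 genes averaging 10 CPM or more, the 2 DIP2C-/- clones E3 and C10 differed by at least 4-fold at 22 genes. By these counts E3 was nearer to the heterozygous clone F6-A7, at 10 genes, and C10 to the heterozygous clone A6-C9, at 8 genes. The latter is close to the 9 genes between the parental samples. Values listed at exactly 0, which can be failed estimates, were kept in these counts. Genes listed at 0 with at least 10 CPM in another clone numbered 7 in E3, 7 in C10, 2 in F6-A7 and 5 in A6-C9. How many of them entered the counts was not examined. The median absolute log2 difference was 0.17 between C10 and A6-C9 and between the parental samples. By this measure E3 and C10, at 0.20, were slightly nearer than E3 and F6-A7, at 0.22. Pairs of 1 DIP2C+/- and 1 DIP2C-/- clone differed at 8 to 204 genes with a median of 41.5, and pairs of DIP2C+/- clones at 17 to 211 genes with a median of 46.5.

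H9-A4 stood apart from all other clones, with 174 to 211 genes 4-fold apart, and was 52 and 56 genes from the parental samples. The remaining DIP2C+/- clones were 104 to 144 genes and the DIP2C-/- clones 121 to 136 genes from the parental samples. Without H9-A4, pairs across the genotypes differed at 8 to 53 genes, with a median of 30.5, and pairs of DIP2C+/- clones at 17 to 51 genes, with a median of 36.5. The spread among heterozygous clones was thus as wide as the distance between the genotypes.

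**Figure D4:**
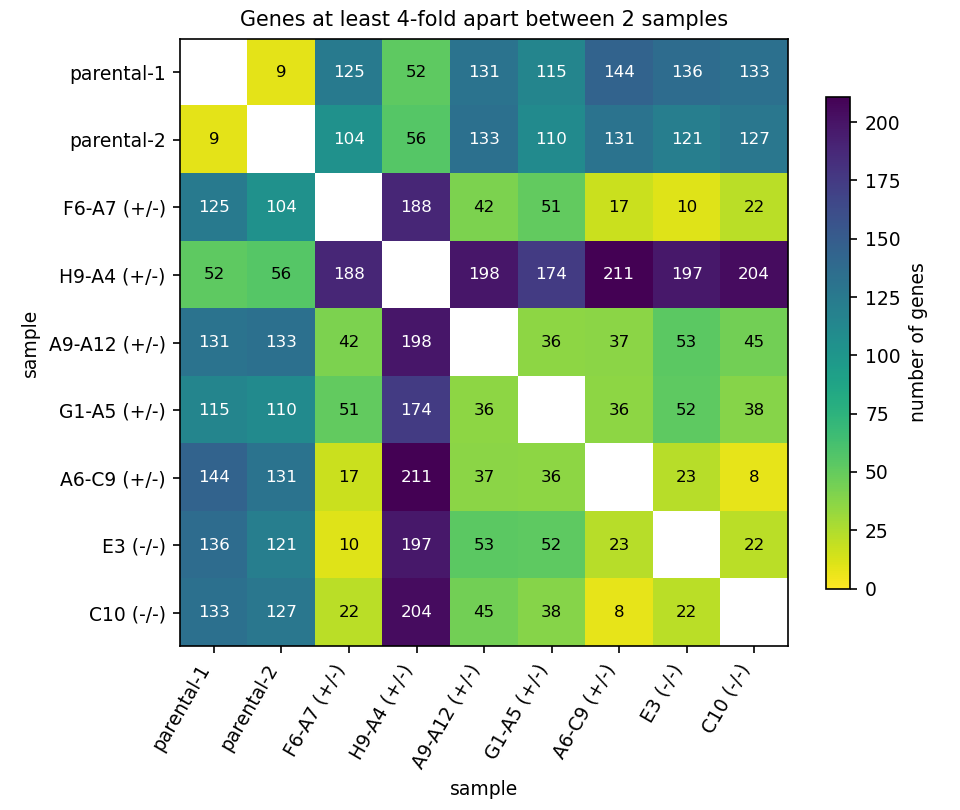
Number of genes at least 4-fold apart, on the log2 scale of CPM + 0.5, between each pair of the 9 samples (both axes), over genes averaging 10 CPM or more in the 7 clones; darker cells hold more genes. C10 and A6-C9 are 8 genes apart and E3 and F6-A7 10 genes, while H9-A4 is 174 to 211 genes from every other clone.

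The lists of pathway genes held no gene called by edgeR other than SNORA57, and their DESeq2 calls were the 4 genes already described. They are given by their values and by the genes without overlap, to be read against 7.25% of all genes higher and 3.55% lower in DIP2C+/- clones. With fewer clones these shares of all genes rose, to 12.3% and 13.7% without E3, 22.3% and 10.7% without C10, and 10.8% and 5.09% without H9-A4.

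Of 27 genes of cholesterol and fatty acid synthesis tested, 6 had every DIP2C+/- clone above both DIP2C-/- clones and 0 below, 22.2% against 7.25% of all genes, with a median log2 difference of 0.24 against 0.02. They were MVD, FDPS, NSDHL, EBP, DHCR7 and FASN. DHCR7, which makes cholesterol in the last step of the Kandutsch-Russell pathway, was at 79.0 and 84.7 CPM in DIP2C-/- clones and at 98.4, 138, 126, 174 and 154 CPM in A6-C9, A9-A12, F6-A7, G1-A5 and H9-A4. The parental samples had 121 and 148 CPM, within the heterozygous range. The log2 difference was 0.73 (SE 0.207, adjusted p 0.953, edgeR).

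EBP, the sterol isomerase ahead of it, was at 37.7 and 40.4 CPM in DIP2C-/- clones. The DIP2C+/- values were uneven, 48.0 CPM in F6-A7 and 41.1 CPM in A6-C9 near the homozygous level, and 72.4, 72.3 and 71.8 CPM in H9-A4, A9-A12 and G1-A5 near the parental 70.3 and 76.3 CPM. FASN, the fatty acid synthase, was at 944 and 992 CPM in DIP2C-/- clones and at 994 to 1753 CPM in DIP2C+/- clones, so that A6-C9 cleared C10 by a narrow margin. NSDHL had 31.8 and 30.5 CPM against 38.3 to 47.2 CPM. With library size alone as the scale 4 of the 27 genes were higher without overlap (14.8%, against 4.83% of all genes). With the length offset 4 were higher (14.8%, against 6.02%), and with DESeq2 size factors 7 (25.9%, against 7.09%). Without E3 7 were higher (25.9%, against 12.3%) and 1 lower (3.70%, against 13.7%). Without C10 9 were higher (33.3%, against 22.3%), and without H9-A4 8 (29.6%, against 10.8%).

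Of 24 genes of the interferon response and MHC class I, 5 had every DIP2C+/- clone above both DIP2C-/- clones and 0 below, 20.8% against 7.25% of all genes, with a median log2 difference of 0.24. They were IFITM3, ISG15, IRF1, IFIH1 and TAP1. ISG15, a ubiquitin-like modifier, was at 53.2 and 56.0 CPM in DIP2C-/- clones and at 81.2, 68.7, 63.6, 76.0 and 99.9 CPM in A6-C9, A9-A12, F6-A7, G1-A5 and H9-A4, with the parental samples at 58.3 and 66.7 CPM. IFIH1, a sensor of double-stranded RNA, was at 2.69 and 2.21 CPM against 2.94 to 8.89 CPM. IFITM3 was at 24.4 and 20.2 CPM against 25.3 to 47.3 CPM. None of these passed the test, the smallest adjusted p being 0.953 (edgeR). With library size alone 2 of the 24 were higher without overlap (8.33%, against 4.83% of all genes). With the length offset 3 were higher (12.5%, against 6.02%), and with DESeq2 size factors 4 (16.7%, against 7.09%). There were 8 higher without E3 (33.3%, against 12.3% of all genes), 9 without C10 (37.5%, against 22.3%) and 9 without H9-A4 (37.5%, against 10.8%).

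Of 25 genes of glycolysis and hypoxia, 3 were without overlap and higher in DIP2C+/- clones, GPI, PFKP and GAPDH, and 0 lower, 12% against 7.25% of all genes, with a median log2 difference of 0.16. The count varied with the clones used, with 10 of 25 without C10 (40%, against 22.3% of all genes) and 9 without H9-A4 (36%, against 10.8%). It was 3 without E3 (12%, against 12.3%) and 4 with library size alone (16%, against 4.83%). With the length offset (8%, against 6.02%) or with DESeq2 size factors (8%, against 7.09%) it was 2. PFKP, a phosphofructokinase whose gene lies near DIP2C on chromosome 10p, was at 189 and 232 CPM in DIP2C-/- clones and 256 to 295 CPM in DIP2C+/- clones (log2 difference 0.37, adjusted p 0.953, edgeR). GAPDH was at 1808 and 2116 CPM in DIP2C-/- clones, at 2221 to 2860 CPM in 4 DIP2C+/- clones and at 5171 CPM in H9-A4. Of 24 genes of the unfolded protein, ATF4 and heat shock responses, 3 were higher without overlap, SHMT2, SLC7A5 and HSPA1A, and 0 lower, 12.5% against 7.25% of all genes, with a median of 0.16. Without C10 5 were higher (20.8%, against 22.3%) and 2 lower (8.33%, against 10.7%). Without E3 4 were higher (16.7%, against 12.3%) and without H9-A4 4 (16.7%, against 10.8%), with 0 lower each time. With library size alone 3 were higher (12.5%, against 4.83%) and 0 lower. The length offset gave 3 higher (12.5%, against 6.02%) and 1 lower (4.17%, against 5.17%). SLC7A5, the light chain of a large neutral amino acid transporter, was at 204 and 201 CPM in DIP2C-/- clones and at 245, 363, 279, 315 and 499 CPM in A6-C9, A9-A12, F6-A7, G1-A5 and H9-A4. SHMT2, the mitochondrial serine hydroxymethyltransferase, was at 210 and 220 CPM against 248 to 403 CPM.

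With all clones and TMM factors the shares of proliferation genes were near those of all genes, but not under every alternative. Of 41 DNA replication genes, 4 were higher without overlap in DIP2C+/- clones, CDT1, GINS2, E2F1 and CHAF1B, and 2 lower, GINS4 and CCNE2, 9.76% and 4.88% against 7.25% and 3.55% of all genes, with a median log2 difference of 0.09. With library size alone the counts were 0 and 3 (0% and 7.32%, against 4.83% and 7.54% of all genes). The length offset gave 1 and 3 (2.44% and 7.32%, against 6.02% and 5.17%). Without C10 there were 12 and 4 (29.3% and 9.76%, against 22.3% and 10.7%). Without H9-A4 there were 5 and 6 (12.2% and 14.6%, against 10.8% and 5.09%). E2F1, the transcription factor of S phase entry, was at 29.4 and 41.5 CPM in DIP2C-/- and 42.4 to 68.8 CPM in DIP2C+/- clones. CCNE2, a cyclin of the same transition, was at 59.3 and 66.6 CPM against 38.7 to 56.6 CPM. Of 34 mitosis genes 1 was higher, UBE2C, and 2 were lower, CENPF and ANLN, 2.94% and 5.88%, with a median of -0.07. With library size alone or with the length offset 0 were higher and 4 lower (11.8%, against 7.54% and 5.17% of all genes). Without E3 3 were higher (8.82%, against 12.3%) and 9 lower (26.5%, against 13.7%). Without H9-A4 1 was higher (2.94%, against 10.8%) and 6 were lower (17.6%, against 5.09%). CENPF, a kinetochore protein, was at 334 and 416 CPM in DIP2C-/- clones and at 232 to 330 CPM in DIP2C+/- clones.

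None of the 7 CDK inhibitor genes tested separated the genotypes with all clones. Without E3 2 were lower in DIP2C+/- clones (28.6%, against 13.7% of all genes), and without C10 2 were higher (28.6%, against 22.3%). CDKN1A, which encodes p21, was at 211 and 281 CPM in DIP2C-/- clones and at 336, 368, 260, 430 and 59.4 CPM in A6-C9, A9-A12, F6-A7, G1-A5 and H9-A4. CDKN2A, which encodes p16 and ARF, was at 14.1 and 25.3 CPM against 19.4, 13.2, 18.4, 24.6 and 0.112 CPM in the same order of clones. Outside H9-A4 both lay in or above the homozygous range, apart from A9-A12 for CDKN2A just below it. Of 28 p53 target genes, 1 was without overlap (3.57%, against 7.25% of all genes), with 3 without C10 (10.7%, against 22.3%) and 5 without H9-A4 (17.9%, against 10.8%). It was SFN, which encodes the 14-3-3 sigma protein that holds back mitotic entry. It was at 22.4 and 38.7 CPM in DIP2C-/- clones and at 48.4, 104, 52.1, 82.2 and 64.0 CPM in the same order of DIP2C+/- clones, with parental samples at 90.0 and 90.7 CPM (log2 difference 1.18, SE 0.328, adjusted p 0.953, edgeR).

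Among 16 factors and readouts of the epithelial to mesenchymal transition, ESRP2 was higher and ZEB1 lower in DIP2C+/- clones without overlap, 6.25% each way against 7.25% and 3.55% of all genes, with a median log2 difference of -0.09. ESRP2 overlapped with library size alone and with the length offset. Without C10 there were 3 genes each way (18.75%, against 22.3% of all genes higher and 10.7% lower). ZEB1, a repressor of epithelial genes, was at 104 and 121 CPM in DIP2C-/- clones, at 84.5, 82.3, 54.8 and 87.9 CPM in F6-A7, A9-A12, G1-A5 and A6-C9, and at 12.8 CPM in H9-A4, where it was below the parental 17.7 and 21.1 CPM. The other 4 DIP2C+/- clones were between the parental and homozygous levels. ESRP2, an epithelial splicing regulator, was at 55.9 and 73.0 CPM against 76.96 to 85.3 CPM, with parental samples at 80.2 and 82.4 CPM. Of 19 genes of the DNA methylation machinery, MBD4 was higher and HELLS lower without overlap. With all clones these shares, 5.26% each way, too were near the 7.25% and 3.55% of all genes. With the length offset 3 were higher (15.8%, against 6.02% of all genes) and 1 lower (5.26%, against 5.17%). Without C10 5 were higher (26.3%, against 22.3%) and 2 lower (10.5%, against 10.7%). Without E3 1 was higher (5.26%, against 12.3%) and 4 were lower (21.1%, against 13.7%). DNMT1 had 373 and 479 CPM in DIP2C-/- and 311 to 475 CPM in DIP2C+/- clones, and DNMT3B had 8.62 and 11.1 CPM against 8.20 to 23.3 CPM, so that neither separated the genotypes.

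Of 24 AP-1 and ERK feedback genes, FOSL2 and IER3 were higher and SPRED1 lower in DIP2C+/- clones without overlap, 8.33% and 4.17% against 7.25% and 3.55% of all genes, with a median log2 difference of -0.01. Of 18 NF-kB targets and secreted factors, ICAM1 was higher and IL8 lower, 5.56% each way. Their median was -0.17, but 0.07 without H9-A4 and 0.07 with at least 10 counts in every clone. Without E3 1 was higher (5.56%, against 12.3% of all genes) and 4 were lower (22.2%, against 13.7%). ICAM1, an adhesion receptor for leukocytes, was at 30.8 and 37.2 CPM in DIP2C-/- and 45.7 to 119 CPM in DIP2C+/- clones. IL8 stayed at 1.47 CPM or less in every clone. Of 5 genes of the DIP2 family list, DIP2C alone was without overlap: its paralogues DIP2A, at 70.5 and 84.3 CPM against 65.0 to 88.7 CPM, and DIP2B, at 125 and 155 CPM against 114 to 161 CPM, and DMAP1, at 22.6 and 28.4 CPM against 21.8 to 38.9 CPM, overlapped.

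Among 10 neighbours of DIP2C on chromosome 10p15, PFKP was the 1 gene without overlap (10%, against 7.25% of all genes), with a median log2 difference of 0.12 over the 10. Single clones decided this. Without C10 7 of the 10 were higher (70%, against 22.3% of all genes) and 1 lower (10%, against 10.7%), with a median of 0.44. Without E3 1 was higher (10%, against 12.3%) and 2 were lower (20%, against 13.7%), with a median of -0.05. The median was also -0.05 without A6-C9. Of 17 acyl-CoA synthetases, SLC27A3 was higher without overlap (5.88%, against 7.25% of all genes), with a median of -0.15, or 0.02 without E3. Without C10 or without E3 1 was higher (5.88%, against 22.3% and 12.3%) and 3 were lower (17.6%, against 10.7% and 13.7%). With library size alone 0 were higher (0%, against 4.83%) and 2 lower (11.8%, against 7.54%). The study assayed 12 of its most up- and downregulated genes by RT-qPCR, which it chose on these samples. Of the 11 tested here, 0 were without overlap. Their log2 differences ran from -3.29 to 5.51, and their median was -0.40, but 1.298 over those with at least 10 counts in every clone. DIP2C and ZEB1, which the study also assayed by RT-qPCR, are not in this list and were without overlap, as given above.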

How the data were processed

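RNA sequencing of 9 RKO samples was analysed. Per the labels and methods, sequencing by the authors was on the Ion Proton system, with reads aligned to hg19 with TopHat2 (2.0.4) and genes quantified with Cufflinks (2.2.1 in the submitters' processing notes). For each of 23619 gene symbols the deposited value is an estimated count that may be fractional; how they were written from the Cufflinks output, and whether strand was used, is not given in the sources used here. In every sample at least 98.1% of low values came out as whole multiples of 1 step (tolerance 0.02 of a step), which implies 18907828 to 24863844 reads in the 7 clones. The values were rounded, and genes with at least 10 counts in 2 of the 7 clones were kept.

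The 7 clones were fitted in edgeR 4.0.16 (R 4.3.3) with TMM factors and the quasi-likelihood F test, with Benjamini-Hochberg adjustment over all 15059 genes and a threshold of 0.05. The standard error is the log2 difference divided by the square root of F. Levels are CPM with TMM factors over all 9 samples, and percentages on a log2 scale use CPM + 0.5. The design had assumed whole counts. Genes without overlap, graded genes and distances carry no test. DESeq2 1.42.0, other scalings, other filters, a fit of all 9 samples, values divided by the step and each clone left out were the alternatives. The edgeR script was tested on simulated data, with a pass required only at a variation lower than that between these clones. Transcript length is that of the longest GENCODE 44 transcript mapped to GRCh37, found for 20507 symbols (86.8%) and 88.9% of the genes tested. The spread between clones limits the precision. The genes named are DIP2C, the genes called, the 10 largest differences each way among genes without overlap and among graded genes (at least 2 CPM), and members of 19 lists; some genes of the rule are not reported here. The clones, the gene lists and the tests were chosen with earlier results of these data known.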

Additional observations from a re-analysis of the deposited data

Results flagged for a closer look

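Of 97 genes named or examined with values in the 5 DIP2C+/- clones, 8 had 1 clone far from the others, meaning that its gap to the nearest clone was over 0.71 of the range of the 5. For 5 independent, normally distributed values chance would flag about 1 in 20 such groups. CPM values need not be of that kind, and many of the 97 genes were chosen on these same clones. That rate is therefore no benchmark for the 8 genes flagged. H9-A4 was the clone in 6 of the 8. Among the graded genes it had 51.3 CPM of NR2F1 where the others had 16.9 to 24.1 CPM, 222 CPM of TUBA4A where the others had 102 to 127 CPM, and 7.83 CPM of G2E3 where the others had 4.43 to 5.07 CPM. H9-A4 also had 21.6 CPM of DNMT3A, a de novo DNA methyltransferase, against 6.45 to 9.63 CPM, 5171 CPM of GAPDH against 2221 to 2860 CPM, and 16.0 CPM of CD68 against 507 to 676 CPM. G1-A5 was the clone in the other 2, with 214 CPM of HMGCS1, an enzyme at the start of the mevalonate pathway, against 51.3 to 85.0 CPM, and 154 CPM of TAP1, a peptide transporter of antigen presentation, against 92.8 to 108 CPM.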

How the results depend on the processing

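No paired analysis was possible because the labels link no DIP2C+/- clone to a DIP2C-/- clone. The log2 difference of DIP2C kept its direction under all 18 alternatives, and from 0.93 to 1.33 with 1 clone left out, with adjusted p-values of 0.774 to 1.00. It passed the threshold with DESeq2 alone (1.11). Called genes numbered 4 with DESeq2, all in the lists, and 0 with all 9 samples in the fit, with the length offset and without H9-A4 and A6-C9, the last 2 chosen after seeing the data. With 1 clone left out 0 to 3 genes were called higher, 0 lower, and 0 to 1 in the lists. The 3 called without C10 were PSIP1, RBM12 and CPNE1, chosen for naming after their values were seen, each listed at 0 in E3 and at 94.2 CPM or more in every other clone. SNORA57 was called in 10 of 19 fits.

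Genes without overlap numbered 2076 higher and 1257 lower without H9-A4 and A6-C9, and the lower ones 1135 with library size alone and 956 with no filter. With 1 clone left out they ranged from 1257 to 3352 higher and from 692 to 2028 lower, the highest without C10 and without E3. The lower ones were 842 without F6-A7, 881 without G1-A5 and 888 without A6-C9. Graded genes were 238 downward and 170 upward without H9-A4 and A6-C9, and upward 39 with library size alone and 31 with the length offset. With 1 clone left out they ranged from 73 to 205 downward and from 26 to 95 upward, above the 47 and 17 of all clones whichever clone was left out, since fewer clones have to be in order. With genes of at least 1 CPM the clones were 48 (E3 and C10), 21 (E3 and F6-A7), 29 (C10 and A6-C9) and 368 (C10 and H9-A4) genes apart.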
